A study of Mus musculus with 2 samples.

Results

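Suprabasal cells are the keratinocytes that have left the basal layer of a stratified epithelium and started to differentiate. Here they are cells of the mouse cervix with at least 10 UMIs (unique molecular identifiers, 1 per captured transcript) of Krt10 and Krtdap together, genes of the first suprabasal layers. They also had fewer than 10 UMIs of Krt16 and Krt6b, at most 3 of 5 cell cycle genes (Mki67, Top2a, Birc5, Ube2c and Cenpf) and at most 9 of 3 secretory genes (Muc5b, Tff1 and Agr2). The members were thus chosen by measured levels of these 12 genes, and differences in these genes are a description of the choice. There were 413 such cells among 13981 barcodes that had 200 genes or more and no more than 20% of UMIs from mitochondrial genes, 135 of 4760 in the control library and 278 of 9221 in the progesterone library. Cells of 1 library are not replicates of a condition.

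Cervices of ovariectomised C57BL6/129 female mice, aged 7 to 8 weeks, were dissociated and profiled by droplet single-cell RNA sequencing of transcript 3′ ends. Each of the 2 groups was 1 library of 9 pooled mice, so there was no replicate and no test between groups. Both groups had been ovariectomised, which removes the ovarian source of estradiol and progesterone, and had rested for 2 weeks. The control mice then stayed untreated over the 15 days of the experiment. The progesterone mice received E2 (estradiol) by subcutaneous injection at 100 µg per day on 2 days followed by a progesterone pellet of 25 mg that gave off about 1 mg daily over 21 days. Estradiol, injection, pellet and progesterone all separate the libraries and cannot be told apart, and neither can the mice and the handling of each pool.

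In a stratified epithelium, basal keratinocytes rest on the basement membrane through hemidesmosomes and make the keratins Krt5, Krt14 and Krt15. Cells that move up lose these anchors, add desmosomes, switch to other keratins (Krt10 in cornifying epithelia, Krt13 in moist ones) and later build a cornified envelope in some tissues. In the lower female tract, estrogen drives thickening and cornification of this epithelium, and progesterone favours a mucus-making lining. Krt10 is a type I keratin of the suprabasal layers, and Krtdap (keratinocyte differentiation associated protein) is a small secreted protein of differentiating keratinocytes.

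The markers given for these cells besides Krt10 and Krtdap were Krt13, Timp3, Adh7 and S100g, and all 4 were higher with progesterone. The 5′ flanks of these 4 genes, upstream of the first annotated exon, are shown because these are the given markers that no limit used. The markers came with the choice of members, which was made with earlier results of these data known, so they are not independent of it. They are from RefSeq (GRCm38.p6), read 5′ to 3′ on the gene's own strand. Capitals mark 3 short motifs searched on both strands, namely AGGTCA, a repeat unit bound by many nuclear receptors, AGAACA, a unit bound by the progesterone and glucocorticoid receptors, and TGANTCA, the AP-1 motif. The windows are chr11:100121567-100121816 (minus strand) for Krt13, chr10:86300162-86300371 (plus strand) for Timp3, chr3:138217523-138217759 (plus strand) for Adh7 and chrX:162964600-162964849 (minus strand) for S100g.
Krt13: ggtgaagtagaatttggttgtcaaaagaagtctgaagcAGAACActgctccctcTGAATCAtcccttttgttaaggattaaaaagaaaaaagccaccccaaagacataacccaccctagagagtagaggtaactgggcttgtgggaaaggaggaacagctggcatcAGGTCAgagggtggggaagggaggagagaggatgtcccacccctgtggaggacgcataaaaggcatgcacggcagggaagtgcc
Timp3: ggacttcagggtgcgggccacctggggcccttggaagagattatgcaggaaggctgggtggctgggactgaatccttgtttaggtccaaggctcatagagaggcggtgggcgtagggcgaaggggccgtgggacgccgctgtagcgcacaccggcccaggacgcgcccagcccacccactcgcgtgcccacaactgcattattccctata
Adh7: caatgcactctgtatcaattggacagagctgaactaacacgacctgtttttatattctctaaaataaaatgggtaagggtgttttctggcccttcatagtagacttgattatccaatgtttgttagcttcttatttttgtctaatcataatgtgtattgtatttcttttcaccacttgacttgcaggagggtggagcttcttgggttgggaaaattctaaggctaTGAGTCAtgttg
S100g: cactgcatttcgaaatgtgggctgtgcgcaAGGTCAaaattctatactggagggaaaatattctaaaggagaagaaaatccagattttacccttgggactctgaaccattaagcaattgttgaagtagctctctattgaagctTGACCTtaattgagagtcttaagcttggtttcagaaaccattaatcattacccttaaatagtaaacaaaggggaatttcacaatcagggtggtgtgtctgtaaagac

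The Krt13 flank held 1 match of each motif, the Adh7 flank 1 AP-1 match, and the S100g flank 2 matches of AGGTCA. The Timp3 flank, 63.8% G and C, held none of the 3. Among 32851 RefSeq windows of 250 bases before a gene's start, 14.02% held AGGTCA, 16.1% AGAACA and 6.75% TGANTCA. The matches in the 4 flanks do not overlap each other. A match is a run of letters, and no binding was measured here.

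The suprabasal cells made up 2.84% of kept barcodes in control (95% Clopper-Pearson interval 2.38 to 3.35) and 3.02% with progesterone (2.68 to 3.38). All intervals here are 95% intervals that cover counting error only. The shares overlapped, but the limit on Krt16 and Krt6b acted unevenly. Of cells with at least 10 Krt10 and Krtdap UMIs, it removed 329 of 491 in control and 22 of 328 with progesterone. Without it the shares were 9.06% and 3.23%. The control members are therefore the minority of Krt10 and Krtdap cells that carried little of the stress keratins Krt16 and Krt6b. Libraries shared 19 cell barcodes, of which 1 was a control suprabasal cell and 0 were progesterone ones.

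A member had a median of 7477 UMIs in control (lowest 2712, highest 14696) and 8729 with progesterone (2383 to 20591), or 1053442 and 2407958 UMIs in all. Mitochondrial genes took a median of 5.29% and 7.06% of a member's UMIs. Levels below are CPM, the class's summed UMIs of a gene per 1000000 of the class's UMIs, with exact Poisson intervals, and they are compared within a gene. Ratios of levels have exact conditional binomial intervals. Basal cells for comparison had at least 5 UMIs of Krt5 and Krt14, at least 1 of Col17a1 and at most 2 of Krt10 and Krtdap, under the same other limits. There were 632 in control and 2917 with progesterone, with medians of 3986 and 4747 UMIs. Immune-gated cells (582 and 686, medians of 722 and 893 UMIs) are a class of another kind, and their values are set beside the members' where a transcript may come from outside the cell.

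Krt10 stood at 1191 CPM in control and 1412 CPM with progesterone, and Krtdap at 1063 and 1452 CPM. In basal cells Krt10 was at 13.6 and 23.9 CPM and Krtdap at 82.6 and 26.9 CPM, which the limits set. A member held 10 to 69 Krt10 and Krtdap UMIs in control, with a median of 15, and 10 to 185 with progesterone, with a median of 18. Both genes were read in 73 of 135 control members and 202 of 278 progesterone members. There were 34 control cells with 10 to 11 UMIs just inside it and 64 with 8 to 9 just outside, against 50 and 84 with progesterone. Krt13 was at 1137 CPM just inside and 1314 CPM just outside in control, and at 2810 and 2563 CPM with progesterone, so the cells on both sides of the limit were close in it. Spink5 was at 873 and 810 CPM in control and at 563 and 588.5 CPM with progesterone. In control Krt15 (1574 and 2076 CPM) and Col17a1 (247 and 165 CPM) were less close. With progesterone they were at 3331 and 3090 CPM and at 154.5 and 171 CPM.

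Krt13, the main type I keratin of moist stratified epithelia, had 1312 UMIs (1245 CPM) in control members and 7385 UMIs (3067 CPM) with progesterone. That is 2.46-fold higher (2.32 to 2.61). In basal cells it was at 604 and 581 CPM, near equal in the 2 libraries. It was thus above basal cells 2.06-fold (1.92 to 2.22) in control and 5.28-fold (5.12 to 5.45) with progesterone.

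Timp3, a metalloproteinase inhibitor bound to the extracellular matrix, had 3 UMIs in all control members (2.85 CPM) and 375 with progesterone (156 CPM), 54.7-fold more (18.6 to 266). Adh7, an alcohol dehydrogenase that oxidises retinol, had 6 and 475 UMIs (5.70 and 197 CPM), 34.6-fold more (15.8 to 94.8). S100g, the calcium-binding protein calbindin-D9k, had 14 and 233 UMIs (13.3 and 96.8 CPM), 7.28-fold more (4.25 to 13.5). In control none of the 3 marked these cells. Timp3 and Adh7 were lower than in basal cells (13.9 and 18.9 CPM there), and S100g, at 11.7 CPM in basal cells, had an interval of the ratio that held 1 (0.56 to 2.20). With progesterone they exceeded basal cells 2.24-fold for Timp3 (1.98 to 2.52), 1.59-fold for Adh7 (1.44 to 1.76) and 4.13-fold for S100g (3.49 to 4.90). Timp3, Adh7 and S100g therefore set members above basal cells with progesterone only, while Krt10, Krtdap and Krt13 did so in both libraries. The step of Adh7 was short of 2-fold under all 19 settings that give gene values, so basal cells of the progesterone library carried it too.

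After thinning each cell to 2000 UMIs, Timp3 was read in 18.4% of progesterone members, Adh7 in 31.6% and S100g in 19.4%. In immune-gated cells thinned alike the shares were 1.36%, 2.04% and 0%, where 0 of 147 cells allows up to 2.04%. Without thinning, 36.3% of progesterone members held a Timp3 UMI, 64.8% an Adh7 UMI and 43.2% an S100g UMI.

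**Figure D1:**
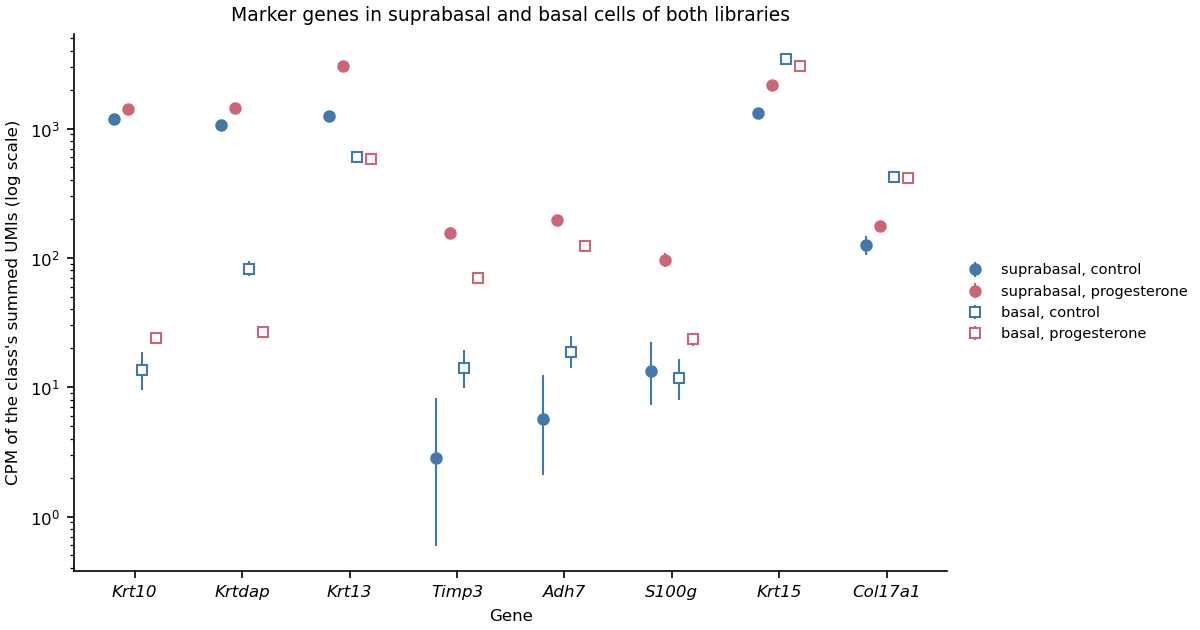
CPM (log scale) of 8 genes in suprabasal cells (filled circles) and basal cells (open squares) of the control (blue) and progesterone (red) libraries, with 95% Poisson intervals. Timp3, Adh7 and S100g lie between 2.85 and 13.3 CPM in control suprabasal cells and between 96.8 and 197 CPM in progesterone ones, while Krt15 and Col17a1 lie below basal cells in both libraries.

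The label of suprabasal cells held up in part. Col17a1, a hemidesmosome collagen, was 3.38-fold lower than in basal cells in control and 2.37-fold lower with progesterone, a difference that the limit on basal cells helps to set. Krt15, a basal keratin that no limit used, was 2.59-fold lower in control (1326 against 3429 CPM) and 1.40-fold lower with progesterone (2176 against 3051 CPM). Krt5 and Krt14 were not lower. Krt14 was at 15280 and 11080 CPM in members against 13130 and 5734 CPM in basal cells. These cells thus carry basal and suprabasal keratins together. Markers of T and NK cells summed to 0 and 0.415 CPM in members, and the 8 macrophage markers to 24.7 and 24.5 CPM (2 at 0 in each library). Fibroblast markers summed to 55.1 and 11.6 CPM, and endothelial and smooth muscle markers to at most 6.64 CPM in either library.

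Of 8657 genes with at least 20 UMIs over both libraries, 580 (6.70%) were at least 2-fold higher with progesterone in suprabasal cells and 515 (5.95%) at least 2-fold lower. The median log2 ratio of all of them was -0.03. The 12 genes highest with progesterone by the interval bound, besides Timp3, Adh7 and S100g, were Bcat1, F3, Tmem213, Krt18, Hpgds, Aldh3a1, Slc14a1, Id4 and Ntrk2. The 12 lowest were Sprr2d, Lcn2, Ifitm1, Spink12, Ltf, Sprr2f, Sprr2b, Cxcl5, Prss27, Arg1, Sprr2a3 and Psca.

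Bcat1, a cytosolic transaminase of branched-chain amino acids, had 12 UMIs in control members and 364 with progesterone (11.4 and 151 CPM), 13.3-fold more (7.50 to 25.9). F3, tissue factor, which starts blood clotting, stood at 9.49 and 106 CPM, 11.2-fold more (5.97 to 23.6). Krt18, a keratin of simple epithelia, stood at 83.5 and 588 CPM, 7.04-fold more (5.67 to 8.83). Its partner Krt8 was at 40.8 and 128 CPM. In basal cells Krt18 stood at 159 and 585 CPM, 3.68-fold more, so with progesterone both layers stood at about the same level. The 12 luminal markers, which include Krt8 and Krt18, summed to 835 and 1539 CPM in members (5 and 2 of them at 0) and to 872 and 1554 CPM in basal cells. The part of luminal RNA in these values was not tested. Slc14a1, a urea transporter, had 5 and 129 UMIs, and the neurotrophin receptor gene Ntrk2 had 29 and 362.

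Aldh3a1, an aldehyde dehydrogenase of epithelia, stood at 32.3 CPM in control and 245 CPM with progesterone (7.58-fold, 5.36 to 11.1). Hpgds, which makes prostaglandin D2, stood at 8.54 and 92.2 CPM (10.8-fold, 5.58 to 23.9). Tmem213, a small membrane protein, stood at 49.4 and 389 CPM (7.88-fold, 5.95 to 10.6). Immune-gated cells of the progesterone library held 0.248 Tmem213 UMIs per cell, against 3.37 per member. Id4, an inhibitor of helix-loop-helix transcription factors, had 8 and 153 UMIs.

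Members of the Sprr2 family, small proline-rich proteins cross-linked into the cornified envelope, were at or near 0 with progesterone. Of 10 in the files, 5 had 20 UMIs or more over both libraries, and these 5 were all over 2-fold lower. Sprr2d, Sprr2b and Sprr2e passed this minimum through control alone, where they were high, so their direction is no separate support. Sprr2d had 2818 UMIs in control members and 2 with progesterone (2675 and 0.831 CPM), 3221-fold fewer (891 to 26610). Sprr2f had 4400 and 82 UMIs (4177 and 34.0 CPM), 123-fold fewer (98.6 to 154). Sprr2a3 had 588 and 35. Sprr2b had 108 and 0, at least 82.3-fold lower when set against a floor of 3 UMIs per library. Sprr2e stood at 43.7 CPM in control and had 0 UMIs with progesterone. Family members are near-identical copies in a cluster on chromosome 3, and how reads were divided among them is not given in the sources used here, so values of single members are uncertain.

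Antimicrobial and inflammatory genes were low with progesterone as well. Lcn2, the iron-sequestering lipocalin 2, had 2070 UMIs in control members and 19 with progesterone (1965 and 7.89 CPM), 249-fold fewer (159 to 414). Ltf, lactoferrin, had 2262 and 36 UMIs (2147 and 14.9 CPM), 144-fold fewer (103 to 206). Cxcl5, a neutrophil-attracting chemokine, stood at 486 and 8.72 CPM. Ifitm1, an interferon-induced membrane protein, stood at 2302 and 10.8 CPM, 213-fold fewer (145 to 327). Arg1, arginase, had 292 and 12 UMIs, and Spink12, a protease inhibitor, 322 and 1. Of 8 inflammation genes compared, 7 were at least 2-fold lower and 0 higher (Il1b, Il1rn, Cxcl2, Cxcl5, Lcn2, Ltf and Il1f9), with a median log2 ratio of -5.49 against -0.03 for all genes. At least Lcn2 and Cxcl2, the latter with 0 UMIs with progesterone, passed the minimum of 20 UMIs through control alone. Their direction is no separate support, and the count and the median include them.

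Several of these transcripts were also read in the immune-gated cells. These cells held 4.75 Sprr2d UMIs per cell in control and 1.68 with progesterone, against 20.9 and 0.00719 per suprabasal cell. For Ltf they held 5.03 and 5.38 against 16.8 and 0.130, and for Lcn2 3.96 and 4.90 against 15.3 and 0.0683. Control members were thus above the immune-gated cells per cell and progesterone members below them. The immune-gated cells held far fewer UMIs in all, and in CPM they were above control members for Sprr2d, Ltf and Lcn2. In control the Sprr2 list summed to 7566 CPM in members and 7902 CPM in immune-gated cells. The inflammation list summed to 4837 and 14910 CPM. With progesterone members were below in both lists (49.8 against 1834 CPM, and 57.7 against 12300 CPM). For Sprr2b the immune-gated control cells held 1.90 UMIs per cell against 0.80 in members. Neutrophils make Lcn2 and Ltf themselves, and the gate holds neutrophils: their markers summed to 40760 and 46380 CPM in it. For these genes the class therefore gives no level of free RNA, and the part of free RNA in the members' values was not tested.

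The 8 neutrophil markers summed to 1178 CPM in control members and 169 CPM with progesterone, with none at 0, and to 920 and 448 CPM in basal cells. S100a8 and S100a9, which squamous cells also make, were at 420 and 689 CPM in control and at 16.2 and 30.7 CPM with progesterone. With called doublets and every cell holding an immune UMI left out, the log2 ratio was -11.00 for Sprr2d (-11.33 with all members), -8.05 for Lcn2 (-7.92), -6.84 for Ltf (-7.15) and -6.21 for S100a8 (-4.68). All 4 kept their direction and stayed past 2-fold.

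A few of the genes rested on few cells. In control the 5 richest members held 93.4% of all Prss27 UMIs and 91.6% of all Psca UMIs. They held 79.6% of Sprr2b, 57.9% of Arg1 and 52.3% of Cxcl5, against 20.7% of Ifitm1 and 21.5% of Sprr2f. Prss27 is a membrane-linked serine protease, and Psca a cell-surface protein of epithelia. After thinning, Sprr2d was read in 49.6% of control members, Lcn2 in 50.4%, Ltf in 43.7% and Ifitm1 in 62.2%, against 0%, 1.44%, 2.88% and 1.44% with progesterone. In thinned immune-gated control cells, of which 73 were deep enough, the shares were 17.8%, 20.6%, 24.7% and 35.6%. Sprr2d, Lcn2, Ltf and Ifitm1 were thus read in more control members than in these cells. For Prss27 (4.44%), Psca (9.63%), Arg1 (15.6%) and Sprr2b (5.93%) the share of control members was below that of the immune-gated cells (9.59%, 16.4%, 20.6% and 9.59%). Unthinned, 56.3% of control members held a Sprr2d UMI, 62.2% an Lcn2 UMI and 11.8% a Prss27 UMI.

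**Figure D2:**
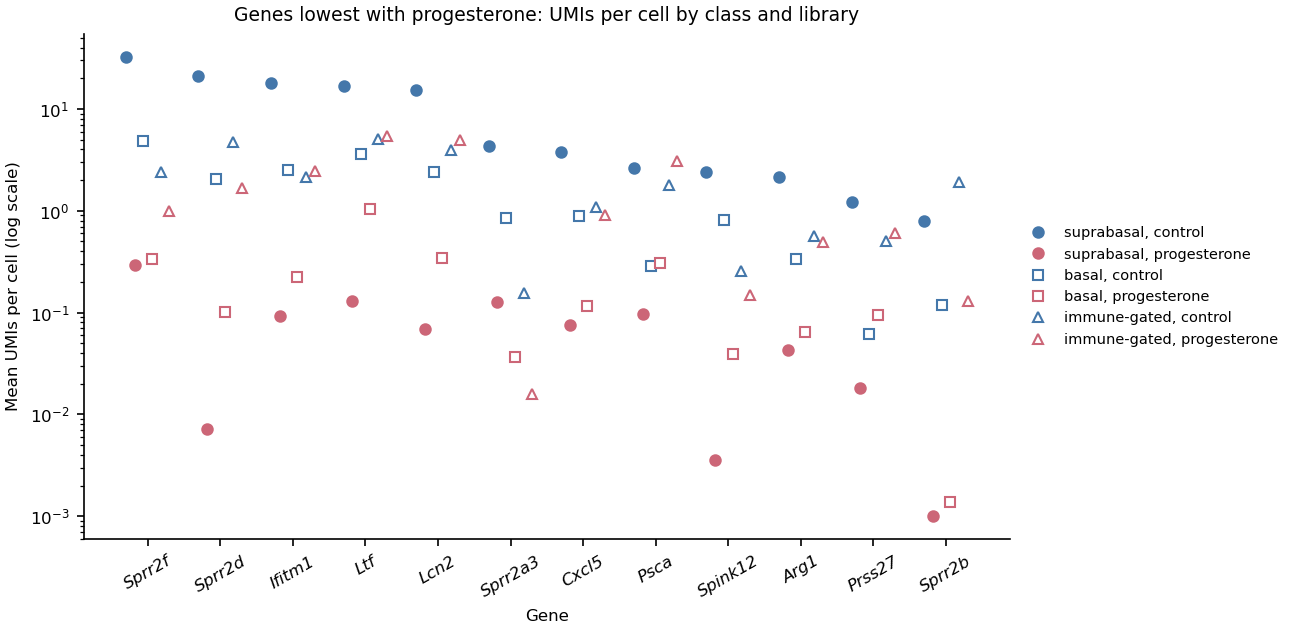
Mean UMIs per cell (log scale) of the 12 genes lowest with progesterone, in suprabasal (filled circles), basal (open squares) and immune-gated cells (open triangles) of the control (blue) and progesterone (red) libraries. Sprr2b, with 0 UMIs in progesterone suprabasal cells, is drawn at 0.001. Values are not scaled to the UMIs of a cell, which were fewer in immune-gated cells. Control suprabasal cells are highest for 10 of the 12 genes, all but Sprr2b and Psca, and progesterone suprabasal cells lie below the immune-gated cells of their library except for Sprr2a3.

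The basal cells of the same libraries differed less for most of these genes, and the 2 layers can be set side by side. Sprr2d was 24.6-fold lower with progesterone in basal cells, Lcn2 8.37-fold, Ltf 4.19-fold and Ifitm1 13.5-fold. Prss27 and Psca were at 14.7 and 69.0 CPM in control basal cells and at 19.03 and 61.5 CPM with progesterone. On the log2 scale, the change in suprabasal cells less that in basal cells was -6.71 for Sprr2d (-8.51 to -4.91), -6.47 for Prss27 (-7.79 to -5.15), -5.08 for Ltf (-5.56 to -4.60), -4.86 for Lcn2 (-5.51 to -4.20), -4.73 for Psca (-5.33 to -4.12) and -3.96 for Ifitm1 (-4.53 to -3.39). Among the named genes it was highest at 3.25 for Timp3 (1.66 to 4.84), 2.30 for Adh7 (1.11 to 3.49), 2.29 for Spink5 (2.12 to 2.46), 1.84 for S100g (0.91 to 2.77), 1.83 for Krt6a (1.72 to 1.95), 1.63 for Hpgds (0.64 to 2.63) and 1.41 for BC100530 (1.04 to 1.79). It was 1.36 for Krt13 (1.24 to 1.47), 1.32 for Sprr1a (1.17 to 1.46) and 1.27 for Dmkn (1.13 to 1.40). Bcat1, Tmem213, Aldh3a1, Slc14a1, Id4 and Ntrk2 had intervals that held 0, so their gain in suprabasal cells was not told from that in basal cells at this depth.

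**Figure D3:**
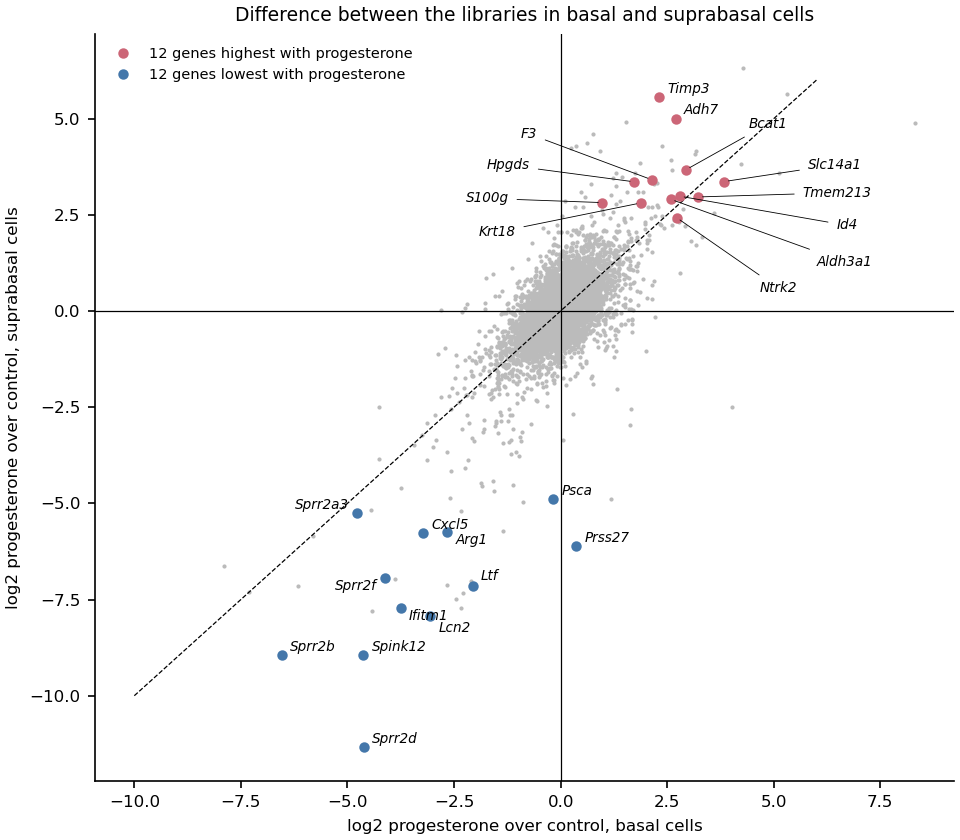
Log2 ratio of progesterone over control in suprabasal cells (vertical axis) against basal cells (horizontal axis), with 1 grey point per gene of at least 20 UMIs in each layer and 0.5 added to each sum. The dashed line marks equal differences. The 12 genes highest with progesterone lie near or above it (Timp3 at 5.55), and the 12 lowest lie below it, Sprr2a3 and Sprr2b with intervals of the gap that held 0.

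For Spink5, Krt6a and Dmkn the members of the 2 libraries stood close and the basal cells differed, but only under the limit on Krt16 and Krt6b. With no such limit the log2 ratio of progesterone over control in members was -1.62 for Spink5, -1.98 for Krt6a and -1.02 for Dmkn. Spink5, an inhibitor of the proteases that shed the surface layer, stood at 915 CPM in control members and 894 CPM with progesterone. In basal cells it stood at 351 and 70.2 CPM. Krt6a, a keratin of stressed and suprabasal keratinocytes and a near copy of Krt6b, stood at 1939 and 2022 CPM in members and at 659 and 193 CPM in basal cells. Dmkn, a secreted protein of differentiating keratinocytes, stood at 1204 and 1158 CPM in members and at 524 and 210 CPM in basal cells. Under this limit the 2 layers were thus further apart with progesterone in these genes. In control the log2 ratio of members over basal cells was 1.56 for Krt6a, 1.38 for Spink5 and 1.20 for Dmkn. With no limit on Krt16 and Krt6b these rose to 3.19, 2.825 and 2.09. With progesterone, under the limit, they were 3.39, 3.67 and 2.465.

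Of 9104 genes with at least 20 UMIs over both layers in each library, 107 (1.18%) were at least 2-fold higher in suprabasal than in basal cells in both libraries, and 298 (3.27%) at least 2-fold lower. The medians over all genes were -0.10 in control and -0.07 with progesterone on the log2 scale. The 12 highest in both were Tmprss11b, BC100530, Sptssb, Pdzk1ip1, Wfdc18, Krt6a, Gsta4, Sprr1a, Anxa1, Lypd2, Spink5 and Ly6d. Tmprss11b, an airway-type membrane serine protease, was 5.57-fold higher in control (4.44 to 7.02) and 5.24-fold with progesterone (4.60 to 5.97). BC100530, a protease inhibitor gene of the stefin family, whose members are much alike and uncertain for that reason, was 5.02-fold higher (4.08 to 6.19) and 13.4-fold (11.3 to 15.8). Sptssb, a small subunit of the enzyme that starts sphingolipid synthesis, was 5.83-fold (4.16 to 8.26) and 4.26-fold (3.68 to 4.92) higher.

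Gsta4, a glutathione transferase that clears products of lipid peroxidation, stood at 933 CPM in control members and 1718 CPM with progesterone, 3.01-fold and 3.15-fold above basal cells. Anxa1, the phospholipid-binding annexin A1, was 3.33-fold and 2.68-fold above. The glycolipid-anchored Ly6-type proteins Lypd2 and Ly6d were 2.80-fold and 2.35-fold above in control, and 2.998-fold and 3.22-fold with progesterone. Sprr1a, an envelope precursor, stood at 1540 and 698 CPM in members and at 540 and 98.2 CPM in basal cells. Wfdc18, a protein with a protease inhibitor fold, kept its step over basal cells (3.11-fold and 3.64-fold) while its level in members was 7.50-fold lower with progesterone (1221 against 163 CPM). These 12 genes did not move as 1 group between the libraries.

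**Figure D4:**
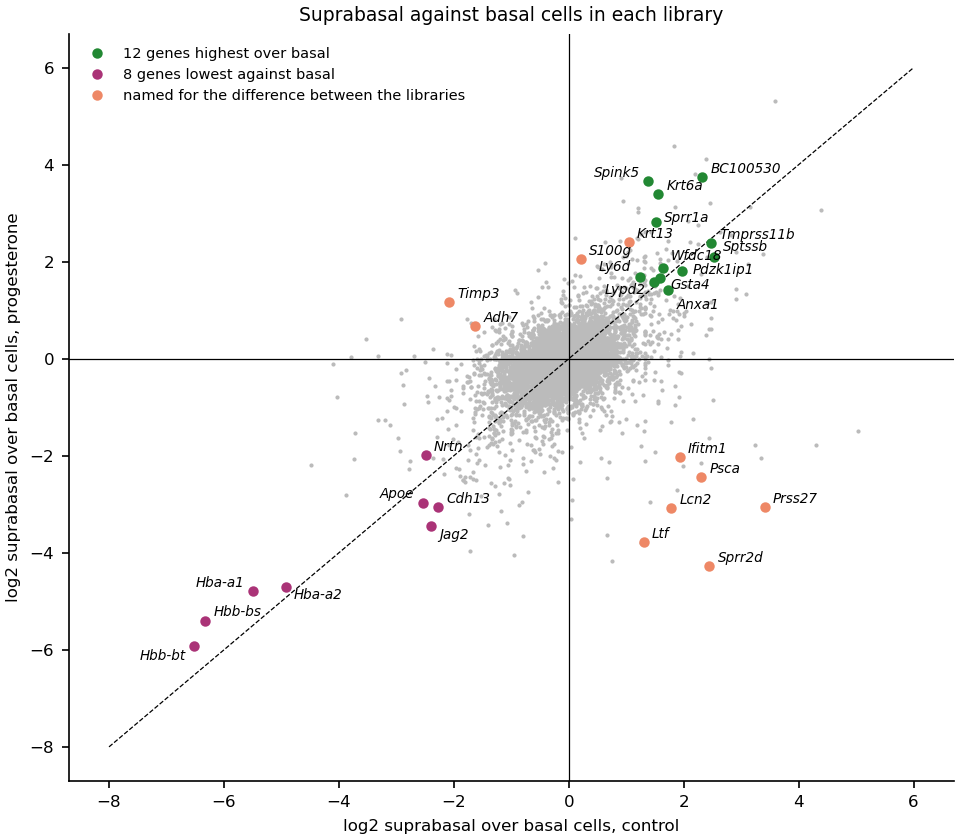
Log2 ratio of suprabasal over basal cells with progesterone (vertical axis) against control (horizontal axis), with 1 grey point per gene and 0.5 added to each sum. The dashed line marks equal ratios. The 12 genes highest over basal cells lie up and right of 0 on both axes, Timp3 and Adh7 are below 0 in control only, and Sprr2d, Lcn2, Ltf, Ifitm1, Prss27 and Psca are below 0 with progesterone only.

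Lowest against basal cells in both libraries were the hemoglobin genes Hbb-bs, Hbb-bt, Hba-a1 and Hba-a2, near-identical in pairs and uncertain singly, and the genes Apoe, Nrtn, Jag2 and Cdh13. Hbb-bs had 13 UMIs in control members and 164 with progesterone, 83.4-fold and 42.3-fold below basal cells. Basal cells held 8.11 and 26.2 UMIs per cell of the 5 erythrocyte markers, against 0.244 and 1.26 in suprabasal cells and 18.7 and 30.7 in immune-gated cells. The part of red cell RNA in these ratios was not tested. Apoe, a lipid carrier, was 5.84-fold and 7.80-fold lower than in basal cells. Jag2, a Notch ligand, was 5.42-fold and 11.2-fold lower, Nrtn, the growth factor neurturin, 5.68-fold and 3.99-fold, and Cdh13, a cadherin without a cytoplasmic tail, 5.02-fold and 8.48-fold.

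The gene lists that follow are read against the shares over all genes, 6.70% higher and 5.95% lower with progesterone, and 1.18% higher and 3.27% lower than basal cells in both libraries. With 1 gene past 2-fold between the libraries, a list of 12 to 14 genes is close to the share of all genes. In these lists too a gene could pass the minimum of UMIs through 1 library alone, where it was high. Its direction is then no separate support, and the counts include such genes. Among spinous keratins and their partners, 5 of 10 genes compared were at least 2-fold above basal cells in both libraries (Krt4, Krt13, Krt6a, Sbsn and Dmkn) and 0 below. Between the libraries 3 of 12 were at least 2-fold higher with progesterone (Krt4, Krt13 and Krt78) and 2 lower (Krt23 and Krt19). Krt19, a small keratin of simple and transitional epithelia, was at 225 CPM in control and 16.2 CPM with progesterone. Sbsn, suprabasin, was at 195 and 286 CPM, against 72.4 and 46.7 CPM in basal cells. The basal list (Krt5, Krt14, Krt15, Trp63, Igfbp5 and Igfbp2) had 0 of 6 past 2-fold either way between the libraries. Trp63, the master transcription factor of stratified epithelia, stood at 89.2 and 94.7 CPM against 164 and 213 CPM in basal cells.

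Of 13 genes of the hemidesmosome and basement membrane compared with basal cells, which were themselves chosen by Col17a1 of this list, 6 were at least 2-fold lower in both libraries (Itgb4, Itga3, Itga2, Lama5, Lamb3 and Col7a1) and 0 higher. Itgb4, an integrin of the hemidesmosome, stood at 75.9 CPM in control and 52.7 CPM with progesterone against 188 and 154 CPM in basal cells. Between the libraries 4 of 14 were at least 2-fold lower with progesterone and 0 higher. Lamb3, a chain of laminin 332, stood at 50.3 and 5.81 CPM, and Col7a1, the anchoring fibril collagen, at 75.9 and 20.8 CPM. Lamb3 stayed at least 2-fold lower under 18 of 19 settings and Col7a1 under 17 of 19. Sets of fewer cells went both ways. The log2 ratio of Lamb3 was -4.32 within the middle tercile of Krt10 and Krtdap content, and that of Col7a1 was -2.09 within the low tercile. In other sets the differences were not seen. The log2 ratio of Lamb3 went from -3.08 to -0.054 within the high tercile of Krt10 and Krtdap content. That of Col7a1 went from -1.865 to -0.041 for members with at least 20 Krt10 and Krtdap UMIs.

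Of 12 desmosome genes compared with basal cells, 3 were at least 2-fold higher in both libraries (Ppl, Dsg1b and Dsc2) and 1 lower (Dsg2). Dsc2, a desmosomal cadherin, stood at 124 CPM in control and 251 CPM with progesterone, against 50.1 and 59.0 CPM in basal cells. It was the 1 gene of the 12 that was past 2-fold between the libraries. Dsp, desmoplakin, stood at 1345 and 1726 CPM, and Perp, a desmosome-associated membrane protein, at 1404 and 2166 CPM. Among junction genes 3 of 13 were over 2-fold lower with progesterone (Cldn3, Cldn7 and Gjb2) and 1 higher. That 1 was Cldn10, a claudin that makes ion-selective pores, with 0 UMIs in control members and 23.3 CPM with progesterone. Cldn10 passed the minimum of UMIs through progesterone alone, so its direction is no separate support. It stood at 2.26 and 97.2 CPM in basal cells, so it was lower in members with progesterone. In control the count of 0 allows up to 2.85 CPM, so members could not be told from basal cells.

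Of 26 envelope and late differentiation genes, 12 were at 0 UMIs in control members and 13 with progesterone, among them Lor, Flg2, Hrnr, Tgm3, Sprr3 and Sprr4 in both. A count of 0 allows up to 2.85 CPM in control and 1.25 CPM with progesterone. At least 2-fold above basal cells in both were 4 of 8 compared (Tgm5, Sprr1a, Lypd3 and Slurp1). Between the libraries 4 of 9 were at least 2-fold lower with progesterone (Ivl, Cnfn, Tgm5 and Sprr1a) and 0 higher. At least Cnfn passed the minimum of UMIs through control alone, so its direction is no separate support. Ivl rested on few UMIs, and the count includes both. Cnfn, cornifelin, stood at 45.6 CPM in control and had 0 UMIs with progesterone, and Ivl, involucrin, stood at 13.3 and 2.91 CPM. Calml3 and Lypd3, the others read well, were at 233 and 182 CPM in control and at 348 and 244 CPM with progesterone.

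Among proteases and their inhibitors, 3 of 11 genes were at least 2-fold lower with progesterone (Prss27, Spink12 and Serpinb2) and 1 higher. At least Prss27 and Spink12 passed the minimum of UMIs through control alone, where most Prss27 UMIs lay in few members. Their direction is no separate support, and the count includes them. The higher one was Spint2, an inhibitor of membrane serine proteases, at 88.3 and 232 CPM. The kallikreins Klk5, Klk6, Klk7, Klk12 and Klk14 had 0 UMIs in both libraries. In the barrier lipid list 2 of 12 were at least 2-fold lower (Alox12 and Fabp5) and 0 higher. Fabp5, the epidermal fatty acid carrier, stood at 3409 CPM in control and 580 CPM with progesterone, 5.88-fold lower, and at 1448 and 243 CPM in basal cells. Both libraries kept it above basal cells.

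Of 20 transcription factors of differentiation compared, 2 were at least 2-fold higher with progesterone (Barx2 and Sox15) and 0 lower, near the 6.70% higher among all genes, and the median log2 ratio was 0.14. Barx2, a homeobox factor, stood at 16.1 and 54.0 CPM. Sox15 turned to -0.54 on the log2 scale within the high tercile of Krt10 and Krtdap content. Grhl1, Zfp750 and Elf5 were at least 2-fold above basal cells in both libraries. Zfp750, a zinc finger factor of terminal differentiation, stood at 64.5 and 77.2 CPM against 26.0 and 21.1 CPM in basal cells. Klf4, a factor of barrier formation, stood at 177 and 317 CPM in members and at 166 and 172 CPM in basal cells.

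Notch signalling, which pushes keratinocytes out of the basal state, had 4 of 10 genes at least 2-fold higher with progesterone (Notch1, Hes1, Hey1 and Nrarp) and 1 lower (Jag2). The receptor gene Notch1 stood at 61.7 and 142 CPM, and the target Hes1 at 60.8 and 172 CPM. In basal cells these were at 95.8 and 130 CPM and at 63.7 and 129 CPM. Notch3 was the gene of the list at least 2-fold above basal cells in both libraries, with 56.0 and 70.6 CPM against 23.0 and 28.2 CPM. The ligand Jag2 was the 1 below.

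In the retinoid list 4 of 14 genes were at least 2-fold higher with progesterone (Adh1, Adh7, Aldh3a1 and Dhrs9) and 2 lower (Rdh10 and Lrat). At least Adh1, Adh7 and Dhrs9 passed the minimum of UMIs through progesterone alone, where they were high. Their direction is no separate support, and the count includes them. Adh1, another alcohol dehydrogenase, stood at 1.90 CPM in control and 28.2 CPM with progesterone. In the S100 list 1 of 14 was higher (S100g) and 4 lower (S100a1, S100a6, S100a8 and S100a9). S100g also passed the minimum through progesterone alone. S100a6 stood at 1154 and 222 CPM, and S100a11 at 1361 and 1253 CPM. In members with more Krt10 than Krtdap UMIs, S100a6 was close in the 2 libraries (131 and 126 CPM). In the other members it was at 2241 and 275 CPM. Of the Timp and metalloproteinase list Timp3 was the 1 gene of 7 higher and Mmp7, matrilysin, the 1 lower, with 33.2 CPM in control and 0 UMIs with progesterone. Timp3 passed the minimum through progesterone alone and Mmp7 through control alone, so neither direction is separate support. All control Mmp7 UMIs lay in at most 5 members. Without the 5 richest cells its log2 ratio went from -7.34 to -1.22, which is the value of 0 UMIs in both libraries.

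Steroid receptors and response genes had 5 of 10 at least 2-fold higher with progesterone (Pgr, Tsc22d3, Greb1, Sgk1 and Klf9) and 0 lower, with a median log2 ratio of 1.09. Pgr, the progesterone receptor, stood at 24.7 and 64.4 CPM. Esr1, the estrogen receptor, stood at 70.2 and 125 CPM, short of 2-fold. Greb1, a gene induced by estrogen, stood at 10.4 and 43.2 CPM. In basal cells Pgr was at 29.4 and 56.1 CPM and Greb1 at 21.5 and 38.3 CPM, so the higher levels were not limited to members.

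The interferon and MHC list had 6 of 12 at least 2-fold higher (Ifit1, Isg15, Bst2, Ifi27l2a, B2m and H2-Eb1) and 1 lower. Ifi27l2a, an interferon-induced protein, stood at 12.3 and 68.1 CPM, and B2m, the light chain of MHC class I, at 23.7 and 51.5 CPM. The 1 lower gene was Cd74, a chaperone of antigen presentation, at 46.5 and 22.8 CPM. Ifitm1, also interferon-induced but not in this list, was lower with progesterone (log2 ratio -7.71). The log2 ratio of B2m was 0.09 within the high tercile of Krt10 and Krtdap content. The list summed to 457 and 671 CPM in members and to 445 and 912 CPM in basal cells, so the higher levels were not limited to members. Of 13 genes of oxidative stress 2 were higher (Gsta1 and Gstm1) and 1 lower (Gpx2), the latter near the 5.95% lower among all genes. Gstm1 stood at 63.6 and 225 CPM. Early response genes had 0 of 12 higher and 1 lower (Egr1), also near that share, with a median of 0.01. The growth factor receptor genes Erbb3 and Fgfr3 were the 2 of 6 higher in the EGF and FGF list, with 0 lower, and hyaluronan genes had 1 of 5 higher (Hyal2) and 1 lower (Tmem2).

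Some of these calls depended on the limit on Krt16 and Krt6b. With that limit removed, the log2 ratio of progesterone over control was 0.02 for Pgr (1.36 with it), 0.65 for Krt13 (1.30) and -0.19 for Cldn7 (-1.35). It turned to -0.87 for Dsc2 (1.01) and to -0.38 for Nrarp (1.03). The same step brought Krt6a to -1.98, Spink5 to -1.62, Sbsn to -1.91 and Krt14 to -1.88. Timp3, Adh7, S100g and the 5 Sprr2 genes kept their direction and stayed past 2-fold.

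The members were also split at 2 values of their Krt10 and Krtdap content, 17.7 and 27.8 UMIs per 10000, into a low, a middle and a high tercile over both libraries. The control members fell into 52, 47 and 36 cells and the progesterone members into 86, 90 and 102. These held 448344, 353044 and 252054 UMIs in control and 901505, 721442 and 785011 UMIs with progesterone. With at least 10 Krt10 and Krtdap UMIs required, only a deep cell could have a low content. Cells of the low tercile were thus deeper, and content and depth cannot be told apart here. Timp3 and Adh7 were high in every tercile of the progesterone library (164, 186 and 118 CPM, and 220, 190 and 178 CPM) and at most 8.50 and 11.9 CPM in any control tercile. Krt13 stood at 3170, 3069 and 2946 CPM with progesterone and at 1356, 1008 and 1381 CPM in control. The library difference in these genes was thus present at each level of Krt10 and Krtdap.

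Other genes differed along the terciles, in which content and depth go together. Dsc2 was at 98.1, 119 and 178 CPM from low to high in control and at 192, 263 and 307 CPM with progesterone. Tmprss11b was at 183, 210 and 373 CPM and at 127, 197 and 227 CPM. Fabp5 was at 2888, 3051 and 4836 CPM in control and at 458, 586 and 713 CPM with progesterone. Krt15 was lowest in the high tercile of both libraries, with 714 and 1544 CPM. Spink5 was highest there, with 1321 and 1296 CPM, where the 2 libraries were close. Col17a1 was at 161, 139 and 43.6 CPM in control and at 154, 197 and 181 CPM with progesterone, so it fell from low to high in 1 library.

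**Figure D5:**
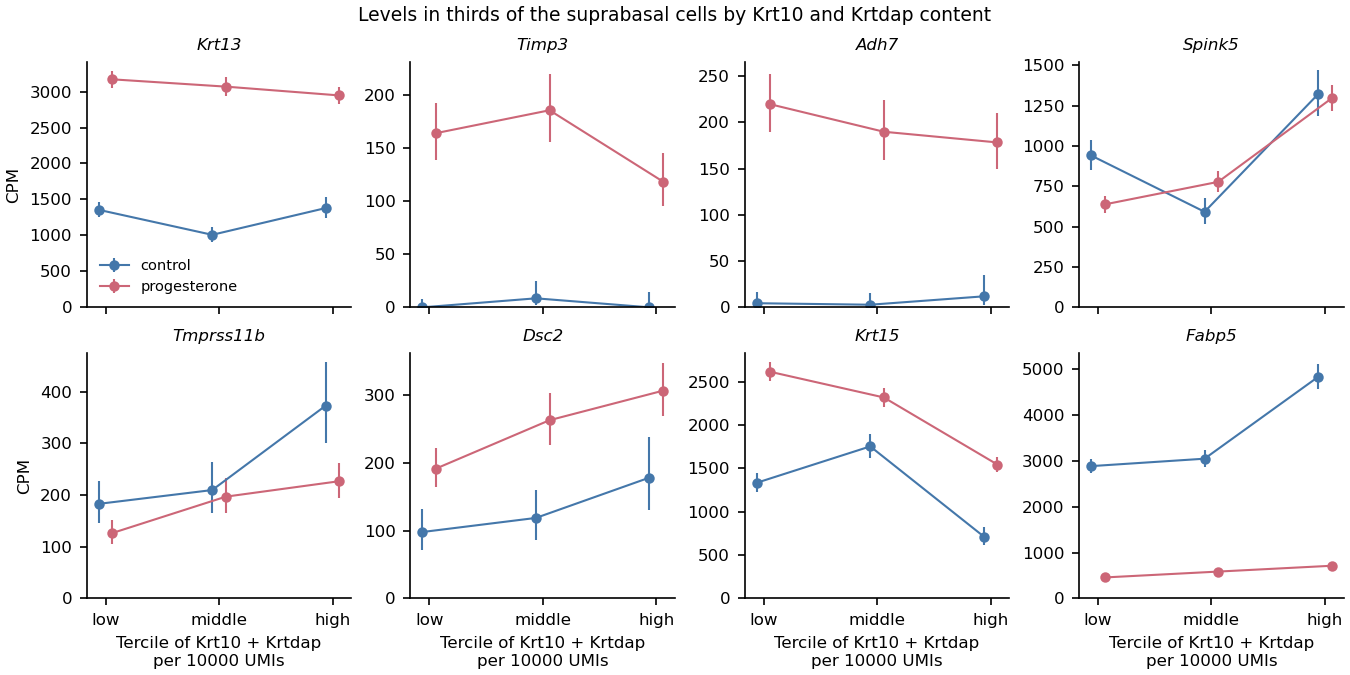
CPM of 8 genes in suprabasal cells of the low, middle and high tercile of Krt10 and Krtdap UMIs per 10000 UMIs, in the control (blue) and progesterone (red) libraries, with 95% Poisson intervals. Timp3 and Adh7 are near 0 in every control tercile, while Tmprss11b and Dsc2 are higher from low to high in both libraries and Krt15 is lowest in the high tercile of both.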

How the data were processed

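Both libraries were made from pooled cervices with a droplet 3′ kit, per the labels' protocols. Reads were processed with Cell Ranger 3.0.2 against mm10, per the submitters' processing notes, and the deposited values are whole-number UMI counts per gene and barcode. They total 21658684 UMIs over 5368 barcodes in control and 44811069 over 10853 with progesterone. Filters on genes (at least 200) and mitochondrial UMIs (at most 20%) left 4760 and 9221.

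Counts were summed per class and library and divided by the class total (CPM). With 1 library per group there was no test, and "past 2-fold" refers to genes with at least 20 UMIs over the 2 sums compared. A gene could pass this minimum through 1 sum alone, where it was high. Log2 ratios add 0.5 to both sums. The interval of a change in suprabasal less basal cells is a normal approximation from 4 Poisson counts. Intervals treat UMIs as independent and do not cover differences between cells or mice. Immune-gated cells had at least 5 UMIs of Ptprc, Tyrobp, Fcer1g and Srgn, at most 5 of Krt5, Krt14, Krt10 and Krtdap, and 0 of Col17a1. Thinning to 2000 UMIs left out 0 suprabasal cells, 114 and 129 basal cells, and 509 and 539 immune-gated cells. Doublets were kept. Scrublet scores, taken at 0.8% per 1000 barcodes, marked 7 control and 5 progesterone members.

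Genes were named by rule: the 12 highest and 12 lowest between libraries, the 12 highest and 8 lowest against basal cells, and the 6 highest and 6 lowest in the change, by interval bound, with at least 100 UMIs and 50 CPM, without the genes of the limits, mitochondrial and ribosomal genes and unnamed transcripts. The markers and up to 4 genes per list were named besides, and every gene of a list past 2-fold; further genes such as Krt8, Klf4 and Esr1 were chosen after their values were seen. A few genes of the lists are not reported here and do not enter the list counts. The members and lists were chosen with earlier results of these data known. Promoter flanks came from RefSeq tables (GRCm38.p6). Python 3.11.15, numpy 2.4.6, scipy 1.17.1, pandas 2.3.3 and scanpy 1.11.5 were used, and the ratio code was tested on simulated data. Alternatives to the limits, scaling and filters were run.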

Additional observations from a re-analysis of the deposited data

Results flagged for a closer look

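For 12 named genes the suprabasal cells were above basal cells in 1 library and below them in the other. With 1 library per group the difference was not tested. Timp3 and Adh7 were below basal cells in control and above them with progesterone, and the log2 ratio of suprabasal to basal cells was higher with progesterone by 3.25 for Timp3 and 2.30 for Adh7. The other 10 were above basal cells in control and below them with progesterone. That ratio changed by -6.71 for Sprr2d, -6.47 for Prss27, -5.08 for Ltf, -4.86 for Lcn2, -4.73 for Psca, -4.31 for Spink12, -3.96 for Ifitm1, -3.08 for Arg1, -2.81 for Sprr2f and -2.55 for Cxcl5. In control, 93.4% of Prss27 UMIs and 91.6% of Psca UMIs lay in the 5 richest members. The progesterone levels of Sprr2d and Spink12 rest on 2 UMIs and 1 UMI.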

How the results depend on the processing

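No paired analysis was possible because each group was 1 library. In all 21 alternative settings and 1 added after seeing the data (called doublets and cells with an immune UMI both left out) were run. Of 35 named genes past 2-fold between libraries, 31 kept their direction under all 19 settings that give gene values and 25 stayed past 2-fold; for 38 genes against basal cells in control these were 36 and 14, and for 34 with progesterone 29 and 24. For each value below the cause was not tested, except that stricter minimums compare fewer genes.

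The share of suprabasal cells, 2.84% in control and 3.02% with progesterone, was 7.18% and 5.77% at 5 Krt10 and Krtdap UMIs, 0.756% and 1.29% at 20, 2.10% and 2.33% with limits per 5000 UMIs, 2.00% and 2.54% with Krt16 and Krt6b below 3, and 4.31% and 3.91% for cells of at least 2000 UMIs. It was 3.37% and 3.56% without doublets and immune UMIs, and in control 9.06% with no limit on Krt16 and Krt6b and 3.44% without immune UMIs.

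The 580 genes higher with progesterone were 1340 with no limit on Krt16 and Krt6b, 324 thinned, 1760 without the 5 richest cells of each gene (a larger part of the 135 control cells), 1599 with no filter, 134 at 100 UMIs, 93 by interval bound and 342 in the middle tercile. The 515 lower were 313 thinned, 2141 with no filter, 144 at 100 UMIs, 160 by bound and 341 in the high tercile. The 107 above basal cells were 162 with limits per 5000 UMIs, 171 with no limit on Krt16 and Krt6b, 47 without the richest cells, 386 with no filter, 38 at 100 UMIs and 35 by bound, and the 298 below were 527 with no limit on Krt16 and Krt6b, 173 thinned, 1201 without the richest cells, 636 with no filter, 75 at 100 UMIs and 43 by bound. With mitochondrial, ribosomal and the 20 most abundant genes out of the denominator, the median log2 ratio between libraries moved from -0.03 to 0.13.

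Among values past 2-fold with all members, these directions turned on the log2 scale. Of those short of 2-fold, 31 of 45 between libraries turned under some setting, among them Dsg1b from 0.97 to -2.43 and Krt17 from 0.28 to -2.14 with no limit on Krt16 and Krt6b. Sprr2f against basal cells with progesterone, -0.95, was 0.30 with limits per 5000 UMIs. Against basal cells with progesterone at 5 UMIs, Lcn2 was 1.43, Cxcl5 1.77, Spink12 0.23 and Psca 1.04, and Spink12 was 0.26 with limits per 5000 UMIs. Without immune UMIs Arg1 was 0.11 and Psca 1.30, and without doublets as well 0.38 and 1.29. Against basal cells in control, Prss27 was -0.0215 at 20 UMIs and -0.39 without the richest cells, and Psca -1.20 without them. Between libraries with no limit on Krt16 and Krt6b, Hbb-bs was -3.19, Hba-a1 -2.48, Hba-a2 -2.28, Jag2 0.15, Nrarp -0.38 and Dsc2 -0.87. At 5 UMIs Hba-a1 was -0.17 and Hba-a2 -0.24. Within the high tercile Nrarp was -0.054, Sox15 -0.54 and Krt4 -0.23, and within the middle one Krt23 was 0.55. Depth limits the control members most, where 3 UMIs are 2.85 CPM.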

Other observations

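The members fell into cells that held more Krt10 than Krtdap and the rest, a split chosen after the values were seen. In control 67 of 135 members held more Krt10, with a median of 8417 UMIs against 7342 in the other 68. With progesterone it was 102 of 278, with a median of 8624 against 8753. Krt10 and Krtdap define the split and are no result of it. Of 2741 genes with at least 40 UMIs in both libraries, 1 (0.0365%) was at least 2-fold higher in the Krt10-led cells in both libraries and 6 (0.219%) at least 2-fold lower.

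The 1 higher gene was Sptssb, at 158 against 62.6 CPM in control (2.53-fold, 1.67 to 3.93) and 207 against 92.9 CPM with progesterone (2.22-fold, 1.77 to 2.79). Tmprss11b was 2.04-fold higher (1.55 to 2.70) and 1.73-fold (1.42 to 2.10). The potassium channel gene Kcnj15 was 1.93-fold higher in both (1.30 to 2.93, and 1.25 to 2.98). Ehf, an ETS factor of epithelia, was 1.39-fold (1.16 to 1.65) and 1.40-fold (1.24 to 1.57) higher.

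Krt17, a keratin of stressed and basal-type cells, was lower in the Krt10-led cells, with 369 against 1145 CPM in control (3.10-fold lower, 2.64 to 3.66) and 329 against 1223 CPM with progesterone (3.72-fold, 3.28 to 4.23). Krt15 was 2.97-fold (2.63 to 3.35) and 1.74-fold (1.64 to 1.86) lower. Igfbp7, a secreted binding protein, was 3.48-fold (2.02 to 6.27) and 2.97-fold (1.38 to 7.32) lower. S100a6 was 17.1-fold lower in control (131 against 2241 CPM) and 2.18-fold lower with progesterone (126 against 275 CPM).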
